A study of Mus musculus with 2 samples.

Results

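The loci described here are those of 4 mouse genes that build an activating signal in natural killer (NK) cells: Ncr1, which encodes the receptor NKp46, and Tyrobp, Hcst and Fcer1g, which encode the membrane adaptors DAP12, DAP10 and the Fc receptor gamma chain. Their members are the Runx3 peaks whose midpoints lie in any of 3 mm9 windows, a window of 200 kb on chromosome 7 for Ncr1 (4200000 to 4400000), a window of 80 kb on chromosome 7 for the neighbouring genes Tyrobp and Hcst (31160000 to 31240000) and a window of 80 kb on chromosome 1 for Fcer1g (173120000 to 173200000). Of the 19647 listed peaks, 18 (0.0916%) met this rule, 3 at Ncr1, 10 at Tyrobp and Hcst and 5 at Fcer1g. The windows were given with their gene names. No mm9 annotation was used here, so a peak is placed by its coordinates and its distance from the window centre, and is assigned to no gene, exon or promoter. The centre is the middle of the interval and is not a gene start.

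The peaks come from 1 chromatin immunoprecipitation sequencing (ChIP-seq) library, made with an in-house polyclonal antibody to the Runt-domain transcription factor Runx3. A library made with non-immune rabbit serum from the same kind of cells served as control, and none of its values were used here. Both were prepared from NK cells of the spleen of wild-type mice of the outbred ICR strain that had received IL-15 complexed with its receptor alpha chain by injection, 2 times and 2 days apart. The cells were obtained by negative selection and then sorted for NKp46, the product of Ncr1, and 40000000 were used. Every cell in the experiment was therefore chosen for carrying the Ncr1 product, and no NKp46-negative population was available for comparison. The labels give neither the age of the mice nor how many contributed. Neither antibody has a replicate, the list carries no score or read count, and so no p-value was computed. Intervals given below are exact 95% Poisson intervals, which cover counting error and treat peaks as independent.

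NKp46 has no signalling motif of its own and sends its signal through partner chains that carry tyrosine-based activation motifs (ITAMs), among them the Fc receptor gamma chain. DAP12 also carries an ITAM and serves other activating receptors of mouse NK cells, such as Ly49H and Ly49D, and phosphorylated ITAMs recruit the kinases Syk and ZAP-70. DAP10 carries a different motif, which recruits phosphatidylinositol 3-kinase, and is a partner of NKG2D. Runx proteins bind DNA with their partner CBFβ at short sites with the core TGTGGT.

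The promoter sequences of RefSeq show which of the genes hold this core close to the start site. They are on GRCm38.p6, another build than the peaks, so their place relative to the peaks was not determined. A search of both strands from 250 bases before the start site to 50 bases after it matched 3 of the 4 genes in the promoter table, Ncr1, Hcst and Fcer1g. The search also covered the core variant TGCGGT, which none of the 3 genes held. Capitals mark TGTGGT in the first of the sequences below, where that of the other strand reads ACCACA, and in the next. The last has the Ets motif CAGGAAGT in capitals. The Ncr1 sequence runs from 250 bases before the start site up to it, and the others show 30 bases around the match, in the direction of transcription.
Ncr1 (chr7:4337465-4337714, plus strand): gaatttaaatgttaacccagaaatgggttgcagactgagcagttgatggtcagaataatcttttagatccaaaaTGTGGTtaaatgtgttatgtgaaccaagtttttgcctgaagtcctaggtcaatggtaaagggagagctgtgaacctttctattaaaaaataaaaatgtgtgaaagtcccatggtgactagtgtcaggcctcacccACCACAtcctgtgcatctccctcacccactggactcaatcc
Fcer1g (chr1:171234323-171234352, minus strand): gaaggagggaacTGTGGTcagggaactgtt
Hcst (chr7:30419854-30419883, minus strand): atgcacccacaCAGGAAGTaggtagcattg

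The Ncr1 promoter held TGTGGT 2 times, beginning 176 and 41 bases upstream of the start site, once on each strand. A second Ncr1 start site in the table lies close by, and its window held the same pair of sites. In the Fcer1g window the core occurred 1 time, beginning 9 bases downstream of the start site, on the strand of the gene. No TGTGGT or TGCGGT was found in the Hcst window, which held 1 copy of the Ets motif beginning 18 bases upstream. The letters of the T-box motif AGGTGTGA and of the STAT motif TTCNNNGAA were absent from all of these windows, and none of the matches overlapped another motif searched. Among all 32851 promoters of 300 bases in the table, 16.8% held TGTGGT, 1.81% held it 2 or more times, 6.45% held TGCGGT, 3.33% held CAGGAAGT, 8.30% held TTCNNNGAA and 1.28% held AGGTGTGA. A match says that the letters are present in the reference build and does not show a bound site. The sequence of the ICR mice was not examined and may differ.

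The same search was made for a chosen list of receptor, kinase, linker and adaptor genes of lymphocyte signalling. Not all of them act with the adaptors described here. Of 23 genes listed, 21 were in the table, and 8 of these held TGTGGT in at least 1 promoter, against 5113 of 27025 genes in the whole table (18.9%). The 8 were the receptor genes Klrk1 (NKG2D), Klrb1c (NK1.1) and Klrc2 (NKG2C), the kinase genes Zap70 and Lck, the linker gene Lat, and the adaptor genes Sh2d1b1 and Sh2d1b2, which are close relatives of each other. The core was not found for Cd247, the other ITAM partner of NKp46, nor for Syk, the signalling linkers and enzymes Lcp2, Plcg1, Plcg2, Vav1, Vav2 and Vav3, nor for Klra8 (Ly49H), Pik3r1, Grb2, Fyn or Fcgr3, the Fc receptor that pairs with the Fcer1g product. A gene with several promoters in the table had more chances to hold the core, and the 2 shares were not tested against each other.

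**Figure D1:**
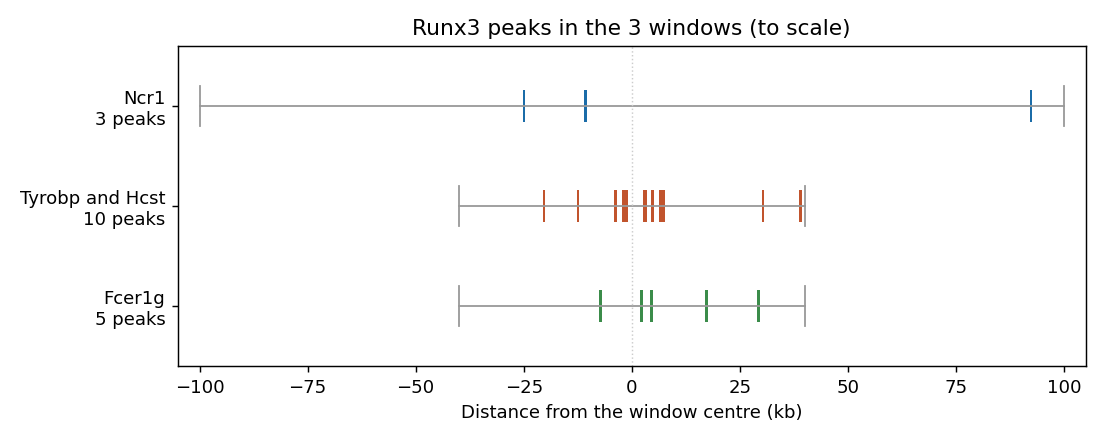
Runx3 peaks in the windows of Ncr1 (200 kb), Tyrobp and Hcst (80 kb) and Fcer1g (80 kb), drawn to scale by distance from the window centre in kb; each coloured bar is 1 listed peak and grey lines mark the window. The Tyrobp and Hcst window holds 10 peaks, 6 of them within 10 kb of its centre, whereas no peak of the Ncr1 window lies that close to the centre. The centre is not a gene start.

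The Ncr1 window held 3 Runx3 peaks, fewer than the shorter windows of the adaptors. The first peak of the Ncr1 window ran from 4274818 to 4275306 on chromosome 7 and measured 489 bp. The second, from 4288901 to 4289597, was the widest of the window at 697 bp, a width that 63.7% of the peaks of chromosome 7 did not exceed. The third, from 4392193 to 4392637, measured 445 bp and lay close to the upper edge of the window. The first and second were 13.6 kb apart, edge to edge, and 103 kb without a listed peak followed before the third.

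None of the 3 had another peak within 10 kb, whereas 56.8% of the peaks of chromosome 7 did. The one nearest the centre of the window lay 10.8 kb before it. The stretch from 10 kb before to 10 kb after the centre was thus free of listed peaks. In the RefSeq order of protein-coding genes, Ncr1 lies between Lilra5, which encodes a leukocyte immunoglobulin-like receptor, and Gp6, which encodes the platelet collagen receptor. How near each of the 3 peaks lies to Ncr1 or to such a neighbour was not determined. The centre of the window does not mark Ncr1, so the free stretch does not show that Ncr1 lacks a peak.

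The locus of the paired adaptors was crowded. Its 10 peaks covered 8.74% of the window, against 0.653% of the span of chromosome 7 from its first to its last peak. An uninterrupted run of 8 peaks, each no more than 10 kb from the next by midpoint, filled 28.2 kb from 31179433 to 31207607, and 2 more peaks formed a pair of 9.23 kb from 31230151 to 31239376. Stretches of 8 or more peaks made up 1.74% of the 287 stretches of 2 or more on chromosome 7, this one included.

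The run began with narrow peaks of 480 bp (31179433 to 31179912) and 525 bp (31187268 to 31187792). The next 6 lay within 11.8 kb of one another. They comprised a peak of 857 bp (31195812 to 31196668), a close pair of 629 and 681 bp (31197736 to 31198364 and 31198453 to 31199133), a peak of 938 bp (31202579 to 31203516), one of 555 bp (31204557 to 31205111) and the widest of 1224 bp (31206384 to 31207607). Of these 6, 3 were wider than 778 bp, the upper quartile of the list. The final pair measured 468 bp (31230151 to 31230618) and 637 bp (31238740 to 31239376).

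The gap inside the close pair was 88 bp, and gaps under 100 bp made up 2.11% of the 1422 neighbouring pairs on chromosome 7. Joining peaks across gaps of up to 1000 bp left 9 regions at the locus. The other gaps in the core of 6 peaks measured 1.07, 3.45, 1.04 and 1.27 kb. All 10 peaks had another within 10 kb, against the 56.8% of chromosome 7, and 6 of the 10 had at least 3 others within that distance, as did 12.9% on the chromosome.

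Tyrobp and Hcst are immediate neighbours in the RefSeq order of protein-coding genes. Lrfn3 lies on the Tyrobp side and Nfkbid, which encodes a nuclear IκB protein, on the Hcst side. A single peak of this window may stand near several of these genes, and the distances were not determined. The flanks of the window differed. In the 80 kb before the window there were 5 peaks and in the 80 kb after it there were 0. The next peak lay 81.2 kb beyond the last of the window by midpoint. Empty windows were common, 71.3% of the other windows of 80 kb on chromosome 7. The bin of chromosome 7 from 31 to 32 Mb held 53 peaks in all, and 10 of these lay in the Tyrobp and Hcst window. Another 17 lay between 31800000 and 32000000. The mean of the chromosome was 0.955 peaks per 100 kb, so the window lies in a region rich in peaks.

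The gamma chain locus held 5 peaks in a looser array. Its first peak, of 658 bp, ran from 173152459 to 173153116 on chromosome 1. The second, of 877 bp (173161825 to 173162701), was the widest of the locus and the nearest to the window centre, 2.26 kb from it, and the third, of 654 bp (173164200 to 173164853), followed after 1.5 kb. These 3 formed a stretch of 12.4 kb. Stretches of at least 3 peaks were 34.6% of the 211 stretches on chromosome 1, so a group of this size was common.

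The fourth Fcer1g peak, of 543 bp (173177050 to 173177592), and the fifth, of 716 bp (173188931 to 173189646), each stood with no other within 10 kb. All but the first of the 5 lay on the upper side of the window centre. Of the 5, 3 had another peak within 10 kb, against 45.5% of the peaks of chromosome 1, and none had 3 or more, against 7.34%.

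**Figure D2:**
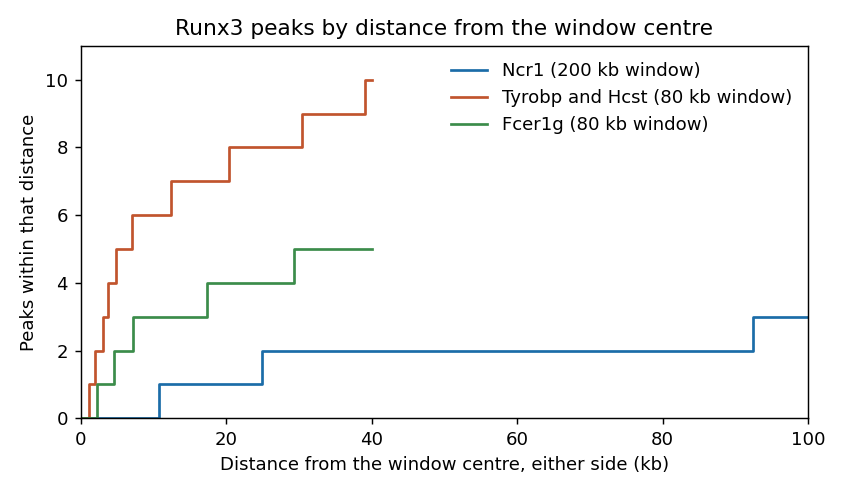
Number of Runx3 peaks (y axis) within a given distance of the window centre on either side (x axis, kb), 1 line per locus, each ending at its window edge. Within 10 kb the Tyrobp and Hcst line has reached 6 peaks, the Fcer1g line 3 and the Ncr1 line 0.

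Since the windows differ in length, the loci were compared with one another by density. Tyrobp and Hcst had 12.5 peaks per 100 kb (5.99 to 23.0), Fcer1g had 6.25 (2.03 to 14.6) and Ncr1 had 1.5 (0.309 to 4.38). The density at Tyrobp and Hcst was 8.33 times that at Ncr1, with an exact conditional 95% interval of 2.15 to 47.1. At Fcer1g it was 4.17 times that at Ncr1 (0.811 to 26.8), and at Tyrobp and Hcst 2 times that at Fcer1g (0.623 to 7.46), and both of these intervals include equal densities. The counting error thus left the order of the gamma chain locus relative to the others undetermined. Counted over the same distance of 40 kb on either side of the centre, there were 10 peaks at Tyrobp and Hcst, 5 at Fcer1g and 2 at Ncr1. Peaks lie in groups along the genome, and these intervals leave that grouping out.

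The second comparison set each locus against windows of the same length, laid end to end from it over the rest of its chromosome. The Tyrobp and Hcst window was among the fullest of chromosome 7, the Fcer1g window was in the upper tail of chromosome 1, and the Ncr1 window was not unusual. Of 1861 other windows of 80 kb on chromosome 7, 4 held at least 10 peaks, which is 0.215%. For Fcer1g, 45 of 2402 other windows on chromosome 1 held at least 5 peaks, which is 1.87%. For Ncr1, 182 of 743 other windows of 200 kb on chromosome 7 held at least 3 peaks, which is 24.5%.

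The fullest window was of 15 peaks in the tiling of Tyrobp and Hcst, 13 in that of Fcer1g and 25 in that of Ncr1. Windows with no peak were common, 71.3% of the other windows for Tyrobp and Hcst, 75.2% for Fcer1g and 59.6% for Ncr1. Relative to the mean density of its chromosome, the Tyrobp and Hcst window had 13.1 times as many peaks (6.28 to 24.1), the Fcer1g window 9.91 times (3.22 to 23.1) and the Ncr1 window 1.57 times (0.324 to 4.59). The last interval includes the chromosome mean. These intervals also leave out the grouping of peaks, so they do not establish an excess at the windows of the adaptors.

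Equal windows take in long stretches without any peak, and the choice of background moved these shares. A window of the same length was centred on each other peak of the chromosome. It held at least as many peaks in 4.60% of cases for Tyrobp and Hcst, 23.5% for Fcer1g and 88.6% for Ncr1. Each such window counts its own central peak, and crowded regions enter once per peak. Those centred close to a locus also count its members. The locus windows are not centred on a peak, so a high share does not make a locus poor in peaks. The number of genes in the windows was not compared, and the windows were proposed with these peaks known, so the shares describe the loci and test nothing.

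**Figure D3:**
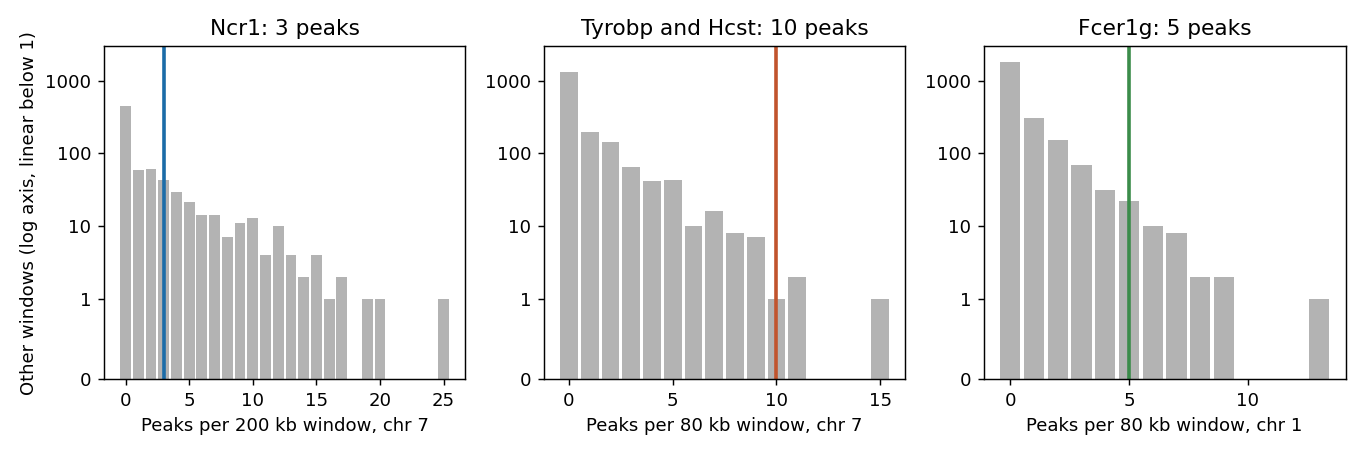
Number of other windows (y axis, log scale that is linear below 1) by the number of Runx3 peaks they hold (x axis), for windows as long as that of each locus on its own chromosome; the coloured line is the locus. The line lies far out in the tail for Tyrobp and Hcst (10 peaks), where the fullest other window holds 15. It lies in the tail for Fcer1g (5 peaks) and among common values for Ncr1 (3 peaks).

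Peak width, the other quantity in the list, overlapped between the loci. The 18 peaks had a median width of 645.5 bp and an interquartile range of 529.5 to 711 bp, against a median of 604 bp and 506 to 778 bp over the whole list, which includes the 18. Medians were 633 bp at Tyrobp and Hcst, 658 bp at Fcer1g and 489 bp at Ncr1, and the ranges of 468 to 1224 bp, 543 to 877 bp and 445 to 697 bp overlapped. At or above the median of the list were 11 of the 18, comprising 6 of 10 at Tyrobp and Hcst, 4 of 5 at Fcer1g and 1 of 3 at Ncr1, against 50.1% of all peaks.

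The peak of 1224 bp in the adaptor run was the 1 member over 1000 bp, and 10.4% of all peaks were that wide. The next, the peak of 938 bp in the same run, was at least as wide as 86.5% of the listed peaks. A width is the extent of a called region and is not a height, so the strength of binding at these loci cannot be ranked from it.

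**Figure D4:**
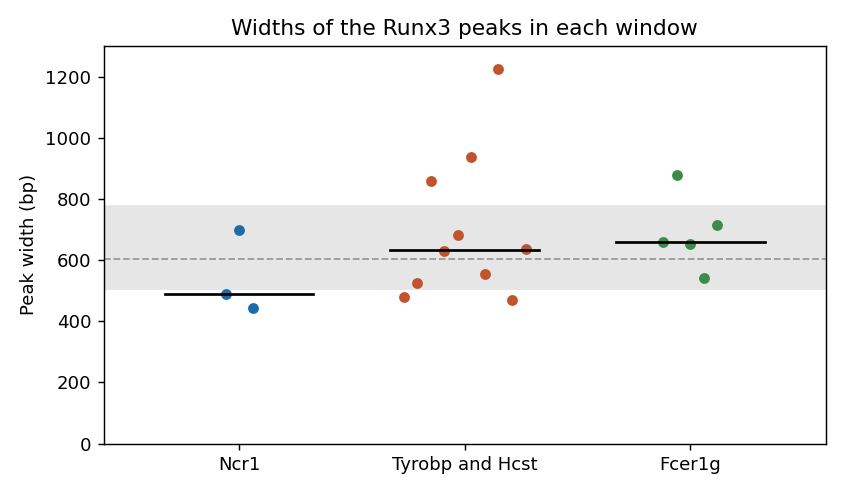
Width in bp of each of the 18 Runx3 peaks (points) by locus, with the median of each locus as a black line; the dashed line and grey band are the median (604 bp) and interquartile range (506 to 778 bp) of the whole list. The ranges of the loci overlap, and the widest peak, of 1224 bp, is at Tyrobp and Hcst.

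The edges of the windows passed closest to peaks at Tyrobp and Hcst. Just outside the Ncr1 window lay peaks 99.0 kb before its lower edge and 44.7 kb beyond its upper edge, against 75.1 and 7.59 kb inside these edges for the outermost members. At the lower edge of the Tyrobp and Hcst window a peak of 393 bp was excluded by 1.22 kb, while the last member lay 0.942 kb inside the upper edge. The nearest excluded peaks at Fcer1g lay 66.8 kb before and 11.4 kb beyond the window, and its outermost members 32.8 and 10.7 kb inside it.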

How the data were processed

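Per the labels' protocols, NK cell chromatin was crosslinked with 1% formaldehyde, sonicated to fragments near 200 bp and sequenced as 50 bp reads, which ELAND mapped to the mouse genome. The submitters' processing notes list CASAVA 1.8.2 and mm9. The deposited list has 3 columns (chromosome, start and end). No source used here gives the peak caller, its threshold, how the control library was used, or whether peaks were left out of the list. The name under which it was deposited includes the words "to small", with no explanation, so it may be a reduced set, and counts, gaps and densities then hold for that set. No score or read count is listed, so the depth behind each peak is unknown.

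Starts count from 0 in the list and are printed counted from 1. Windows, densities, gaps and widths were computed with Python 3.11.15, numpy 2.4.6 and scipy 1.17.1, after a check on simulated lists. Named were the 4 genes and every peak of their windows. Neighbouring genes and promoters come from RefSeq tables on GRCm38.p6. The coordinates of that build gave the gene order and the promoter positions, and no peak was placed by them. Members, windows and lists were chosen with earlier results of these data known. The cell type could not be checked, since no expression was measured.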

Additional observations from a re-analysis of the deposited data

How the results depend on the processing

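Of 36 recomputed values, 22 stayed close to the main value. Close meant within 1.5 times the count or density, within the Wilson 95% interval of the share or within 1 SD of the width. The Wilson interval treats the windows as independent and leaves out the grouping of peaks, so it served only as a margin. Some of the 22 could not move. No listed peak crossed a window edge, so counting any overlap of 1 bp gave the same counts and median width. The smallest gaps were 13.6 kb at Ncr1 and 1.5 kb at Fcer1g, so joining across 1000 bp left their counts unchanged. Keeping the peaks at or above 604 bp left 6 peaks at Tyrobp and Hcst and 1 at Ncr1, by construction, and gave a share of equal windows with at least as many of 0.624% for Fcer1g and 34.6% for Ncr1. A window of 2 times the length gave 8.12 peaks per 100 kb at Tyrobp and Hcst, 0.5 times the length gave 10 per 100 kb at Fcer1g, and 80 kb gave 2.5 at Ncr1. Among windows with at least 1 peak the shares were 0.748% for Tyrobp and Hcst, 7.55% for Fcer1g and 60.7% for Ncr1, because empty windows were left out. Over all 19 autosomes the Fcer1g share was 2.97%. Windows centred on each other peak gave 4.60%, 23.5% and 88.6% in the same order. These windows and the Ncr1 window of 80 kb were chosen after seeing the data. No paired analysis was possible because there is a single Runx3 library.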
